A study of Mus musculus with 247 samples.

Results

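Chromatin accessibility was measured by ATAC-seq in GPS2 knockout and control RAW264.7 cells, a mouse macrophage line of BALB/c origin, none of them treated. The members are all 73206 open chromatin sites of the merged peak table, read in 6 libraries: 3 from GPS2 KO cells, made with CRISPR, and 3 from the CRISPR knockout control cells. Each library came from its own culture well, seeded in triplicate 1 day before harvest, and the labels do not say whether more than 1 knockout clone was used, so the p-values measure the spread between wells of 1 experiment. RNA-seq of 4 GPS2 KO and 4 wild-type libraries without LPS, and ChIP-seq of PU.1, a lineage-determining factor of macrophages, and of JunB, an AP-1 component, in GPS2 KO and wild-type cells without LPS, were set beside the sites. The control cells of the RNA and ChIP libraries are labelled wild type, whereas those of the ATAC libraries are labelled as a CRISPR control.

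GPS2 is a subunit of a corepressor complex in which scaffold proteins such as NCOR1 hold TBL1 proteins and the histone deacetylase HDAC3. In macrophages the complex is brought to chromatin by nuclear receptors and other transcription factors and restrains inflammatory and metabolic genes. ATAC-seq inserts sequencing adapters into DNA with the Tn5 transposase, which works best where nucleosomes are absent, so a high signal marks an accessible promoter or enhancer. The site values are on a log2 scale on which differences were shrunk by the authors' transformation, most at low signal, and a change here is the mean of the GPS2 KO libraries minus the mean of the control libraries on that scale. It understates the fold change. A line was fitted across sites, for the change against the log2 fold change in the authors' deposited table. Its slope was 0.499 at levels of 5 and above, and 0.166 at levels from 3 to 4. Single sites departed from these slopes, which are no conversion for a given site.

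Mapped reads ranged between 4038814 and 6090089 in the GPS2 KO libraries and between 4622700 and 7108592 in the control libraries, and the median site stood at 3.82 to 3.83 in every library. Gps2 RNA checked the labels of the matching RNA cultures at 153 ± 3.35 in GPS2 KO cells, against 504 ± 24.7 in wild-type cells (SD, n = 4 each, in reads scaled to a fixed number of mapped reads per library), a log2 change of -1.71 ± 0.05. The ATAC libraries themselves carry no such check. The 8 macrophage marker genes were all expressed, with a summed RNA level of 122184 to 130068 in GPS2 KO cells and 87268 to 97499 in wild-type cells. Of the T and B cell markers and of the fibroblast and epithelium markers none reached a level of 10, with sums of at most 2.21 and 1.1 in GPS2 KO cells and 3.01 and 1.28 in wild-type cells. The granulocyte and dendritic cell markers summed to between 116 and 133 in GPS2 KO cells and between 30.0 and 35.9 in wild-type cells, mostly from the G-CSF receptor gene Csf3r (109 in GPS2 KO cells and 19.4 in wild-type cells). Of the 1, 1 and 4 promoter sites of these 3 lists none was called. Of their distal sites 4 were called, higher at Ms4a1 and Csf3r and lower at Cd79b and Krt8, and all but the Krt8 call were lost in some analyses that left out a library. In bulk libraries a change in some cells and a smaller change in every cell cannot be told apart, nor can fewer cells of a type and less RNA per cell.

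Windows of 100 bases on each side of the centre of 8 sites are shown as examples of the DNA that opened or closed, taken from the NCBIM37 (mm9) reference on its plus strand. They were chosen, after their values were seen, from the sites with the largest changes and from sites of genes with large RNA changes. Capitals mark matches, on either strand, to the motif letters searched (below), and the centre of a merged site need not be its summit. The first 3 windows lay in sites that were more accessible in GPS2 KO cells, near Adgrl3, Htr1b and Fabp5, and the other 5 in sites that were less accessible, near Spry2, Efnb2, Mir148a, Klf9 and Zfp395.
Adgrl3, chr5:80459379-80459579: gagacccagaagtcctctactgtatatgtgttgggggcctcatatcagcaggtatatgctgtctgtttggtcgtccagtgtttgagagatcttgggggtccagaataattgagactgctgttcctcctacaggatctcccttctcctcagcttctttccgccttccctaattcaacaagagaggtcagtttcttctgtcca
Htr1b, chr9:81527006-81527206: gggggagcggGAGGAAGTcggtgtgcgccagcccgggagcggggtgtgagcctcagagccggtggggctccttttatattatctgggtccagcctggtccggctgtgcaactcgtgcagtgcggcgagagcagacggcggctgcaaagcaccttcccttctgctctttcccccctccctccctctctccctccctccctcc
Fabp5, chr3:10022669-10022869: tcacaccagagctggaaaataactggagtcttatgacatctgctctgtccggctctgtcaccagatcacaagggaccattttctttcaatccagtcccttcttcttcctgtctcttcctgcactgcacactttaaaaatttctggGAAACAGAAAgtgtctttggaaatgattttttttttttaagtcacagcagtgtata
Spry2, chr14:106296753-106296953: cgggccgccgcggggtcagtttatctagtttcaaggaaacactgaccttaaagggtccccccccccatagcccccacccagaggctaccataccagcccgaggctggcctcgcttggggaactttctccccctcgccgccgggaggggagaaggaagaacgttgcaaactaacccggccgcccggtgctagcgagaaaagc
Efnb2, chr8:8661379-8661579: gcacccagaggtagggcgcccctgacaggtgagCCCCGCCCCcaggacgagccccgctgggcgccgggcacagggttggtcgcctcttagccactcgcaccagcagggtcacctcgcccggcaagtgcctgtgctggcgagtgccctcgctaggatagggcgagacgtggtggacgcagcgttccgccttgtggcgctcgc
Mir148a, chr6:51122978-51123178: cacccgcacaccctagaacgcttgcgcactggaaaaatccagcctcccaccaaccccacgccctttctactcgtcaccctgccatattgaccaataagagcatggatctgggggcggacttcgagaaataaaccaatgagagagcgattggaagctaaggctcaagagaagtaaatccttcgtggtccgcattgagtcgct
Klf9, chr19:23209447-23209647: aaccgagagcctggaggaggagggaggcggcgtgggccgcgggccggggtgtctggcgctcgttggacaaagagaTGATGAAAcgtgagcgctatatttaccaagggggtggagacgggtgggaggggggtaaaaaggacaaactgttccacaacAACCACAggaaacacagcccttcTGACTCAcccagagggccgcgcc
Zfp395, chr14:65993650-65993850: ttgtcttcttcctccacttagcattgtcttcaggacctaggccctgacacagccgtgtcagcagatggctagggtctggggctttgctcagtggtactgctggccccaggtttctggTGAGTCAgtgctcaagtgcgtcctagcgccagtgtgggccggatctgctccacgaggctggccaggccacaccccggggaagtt
The Htr1b window, with 12 CpGs, held 1 copy of the extended ETS motif of PU.1, and the Fabp5 window, with 1 CpG, held a tandem GAAA motif of the kind bound by interferon regulatory factors. The Efnb2 window held a KLF/SP motif among 19 CpGs. The Klf9 window held a C/EBP-ATF composite, a RUNX and an AP-1 motif, in that order, and the Zfp395 window held an AP-1 motif. No searched motif lay in the Adgrl3, Spry2 and Mir148a windows, which held 2, 14 and 11 CpGs.

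GPS2 KO cells differed from control cells in the accessibility of 5271 sites, 7.2% of those tested (limma, Benjamini-Hochberg adjusted p under 0.05 over all 73206 sites). Of these 2960 sites were more accessible in GPS2 KO cells, 4.04% of all sites, and 2311 were less accessible, 3.16%. Most changes were small on this scale: the median was 0.25 in size in either direction, and 173 sites rose and 89 fell by at least 0.5. When the spread was not modelled on the level of the site, 2539 sites were called, 1423 higher and 1116 lower. The values of the 3 GPS2 KO and the 3 control libraries did not overlap at 2813 of the 2960 higher sites and 2201 of the 2311 lower sites, against 24.1% of all sites. Leaving out 1 library lowered the counts to between 1747 and 2365 higher and between 1442 and 1722 lower sites. Gains numbered 1747 without control replicate 1 and 1841 without control replicate 3, and losses 1442 and 1504 without the same libraries, 1515 without GPS2 KO replicate 1 and 1494 without GPS2 KO replicate 2. Each of these smaller sets shared between 56.65% and 66.72% of the full set's calls, all in the same direction. By the adjusted p that the authors' deposited table gives, more accessible sites numbered 674 (0.921% of all) and less accessible sites 402 (0.549%), and all 1076 were among the sites called here.

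**Figure D1:**
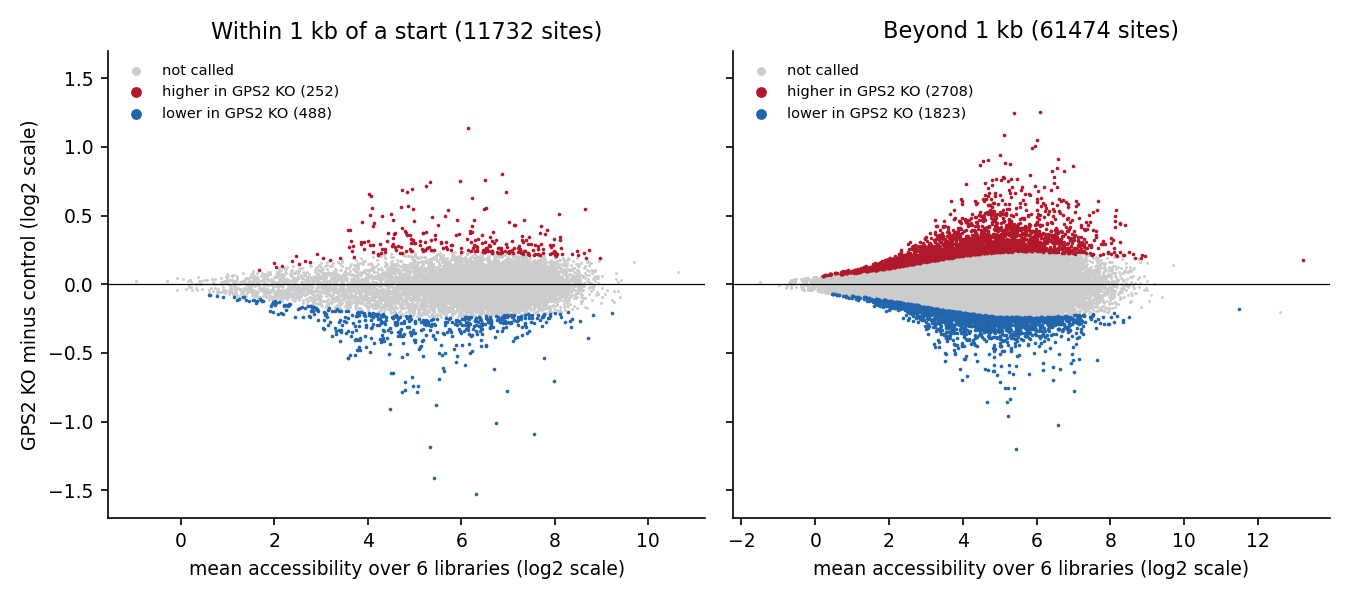
Each point is an ATAC-seq site, with its mean level over the 6 libraries on the x axis and its change (mean of 3 GPS2 KO minus mean of 3 control libraries) on the y axis, both on the authors' log2 scale. Sites called higher and lower in GPS2 KO cells are coloured, and the 13 sites that changed by at least 1, 6 of them higher and 7 lower, stand farthest from the line at 0.

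The largest gains of accessibility lay mostly at distal sites, as did 61474 of all 73206 sites, and near genes of diverse function. A site of the interval chr5:80458645-80460313, intergenic and 990.1 kb from the start of its nearest gene, the adhesion receptor gene Adgrl3, had levels of 6.63, 6.82 and 6.70 in the GPS2 KO libraries, against 5.51, 5.43 and 5.44 in the control libraries. The change was 1.25 ± 0.08 (SE, n = 3 each; limma, adjusted p = 1.34e-35). At this distance the nearest start is a label for the site rather than a known target, and Adgrl3 was not found in the RNA table under that symbol. Another intergenic site, 63.9 kb from Gm8994 at chr6:136212380-136214886, had levels of 6.16, 5.90 and 5.94 in the GPS2 KO libraries, against 4.64, 4.85 and 4.77 in the control libraries, a change of 1.25, adjusted p = 6.91e-35. All 3 GPS2 KO libraries stood above all 3 control libraries at both sites, which the choice of the leading sites required.

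At several of these sites the RNA of the nearest gene was higher too. A site 333 bp inside Htr1b, which encodes a serotonin receptor, lay in an intron of the gene at chr9:81526192-81528021 and had levels of 6.80, 6.70 and 6.61 in the GPS2 KO libraries, against 5.59, 5.47 and 5.64 in the control libraries. The change was 1.13 ± 0.08 (SE, n = 3 each; limma, adjusted p = 1.27e-30), and Htr1b RNA was 943 ± 12.7 in GPS2 KO cells, against 317 ± 25 in wild-type cells (SD, n = 4 each). An intergenic site 10.2 kb downstream of the start of Fabp5, which encodes an intracellular fatty acid carrier, had levels of 6.57, 6.54 and 6.53 in the GPS2 KO libraries, against 5.33, 5.73 and 5.44 in the control libraries at chr3:10022333-10023206. Its change was 1.05 ± 0.08 (SE, n = 3 each; limma, adjusted p = 2.88e-26), and Fabp5 RNA was 1459 ± 85.8 in GPS2 KO cells, against 363 ± 42.2 in wild-type cells (SD, n = 4 each). The groups did not overlap at either site, again by the way the sites were chosen.

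An intergenic site 10.7 kb upstream of Anpep, which encodes aminopeptidase N (CD13) of the myeloid cell surface, had levels of 6.39, 6.40 and 6.58 in the GPS2 KO libraries, against 5.25, 5.6 and 5.49 in the control libraries, a change of 1.01, adjusted p = 1.71e-24. Anpep RNA was 1605 ± 50.5 in GPS2 KO cells, against 241 ± 15.5 in wild-type cells (SD, n = 4 each). An intronic site of Gyg, the gene of the glycogen primer glycogenin, lay 24.4 kb from the start and changed by 0.92, adjusted p = 1.65e-22, with RNA of 1317 in GPS2 KO cells, against 544 in wild-type cells. The exceptions in this group were Gsap, which encodes the gamma-secretase activating protein and whose site 31.2 kb upstream changed by 0.99, adjusted p = 5.37e-24 beside RNA of 319 in GPS2 KO cells, against 281 in wild-type cells, a log2 change of 0.18, and the non-coding 1700049E22Rik, whose site 17.1 kb upstream changed by 0.94 and which was not in the RNA table.

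The strongest gains within 1 kb of a transcription start, besides Htr1b, were at Speg, 4930546K05Rik, Opcml and Lilr4b. The promoter of Speg, which encodes a kinase known from striated muscle, had levels of 7.25, 7.29 and 7.29 in the GPS2 KO libraries, against 6.39, 6.47 and 6.57 in the control libraries, a change of 0.80, adjusted p = 1.24e-18, with RNA of 242 in GPS2 KO cells, against 65.9 in wild-type cells. The promoter of Opcml, which encodes a cell adhesion molecule of the immunoglobulin family, had levels of 6.28, 6.36 and 6.41 in the GPS2 KO libraries, against 5.64, 5.63 and 5.52 in the control libraries, a change of 0.75, adjusted p = 6.09e-15, with RNA of 162 in GPS2 KO cells, against 8.9 in wild-type cells. At Lilr4b, an inhibitory receptor gene of myeloid cells, the site 628 bp from the start changed by 0.74, adjusted p = 1.00e-14, with RNA of 2404 in GPS2 KO cells, against 237 in wild-type cells. Lilr4b has a close paralogue, so reads of both could be mixed. All 3 of these genes had higher RNA in GPS2 KO cells, by log2 1.86, 4.05 and 3.33.

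The largest losses were mostly at promoters. Spry2, which encodes a feedback inhibitor of receptor tyrosine kinase signalling, lost the most: the site at chr14:106295270-106298437, 817 bp before the start, had levels of 5.43, 5.55 and 5.66 in the GPS2 KO libraries, against 7.08, 6.98 and 7.16 in the control libraries. The change was -1.52 ± 0.08 (SE, n = 3 each; limma, adjusted p = 5.16e-48), and Spry2 RNA was 0.861 ± 0.591 in GPS2 KO cells, against 64.9 ± 5.8 in wild-type cells (SD, n = 4 each). The promoter of Efnb2, the gene of the membrane-bound Eph receptor ligand ephrin-B2, had levels of 4.73, 4.67 and 4.76 in the GPS2 KO libraries, against 6.10, 6.21 and 6.09 in the control libraries at chr8:8660884-8662074, a change of -1.41 ± 0.08 (SE, n = 3 each; limma, adjusted p = 2.14e-42). Efnb2 RNA was close to absent in both, 2.62 in GPS2 KO cells, against 1.35 in wild-type cells, and was not tested. The promoter of Bambi, which encodes a decoy receptor of the TGF-beta family, had levels of 4.78, 4.72 and 4.74 in the GPS2 KO libraries, against 5.83, 6.07 and 5.89 in the control libraries, a change of -1.18, adjusted p = 2.01e-32, and Bambi was not in the RNA table.

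Of the other leading losses, a site 96.8 kb from the microRNA gene Mir148a, at chr6:51122659-51123498, had levels of 4.74, 4.80 and 4.97 in the GPS2 KO libraries, against 6.18, 5.86 and 6.05 in the control libraries, a change of -1.20, adjusted p = 2.01e-32. The site in the first intron of Crlf2, which encodes the receptor chain for the cytokine TSLP, had levels of 6.17, 6.26 and 6.29 in the GPS2 KO libraries, against 7.28, 7.24 and 7.23 in the control libraries, a change of -1.01, adjusted p = 2.27e-27, and Crlf2 RNA was 20.8 ± 2.3 in GPS2 KO cells, against 86.3 ± 7.65 in wild-type cells (SD, n = 4 each). The promoter of the Wnt receptor gene Fzd8 changed by -0.88, adjusted p = 1.75e-19, with RNA of 2.61 in GPS2 KO cells, against 16.6 in wild-type cells. The site 938 bp before the dynein adaptor gene Bicdl1 changed by -0.91, adjusted p = 7.77e-24, whereas its RNA was 14.6 in GPS2 KO cells, against 13.7 in wild-type cells and did not pass the test. The promoter of the histone gene Hist1h2ah changed by -1.09, adjusted p = 5.59e-34, and is uncertain because replication-dependent histone genes have near-identical copies to which reads could be shared. In the authors' deposited table the log2 fold changes of the Spry2, Efnb2, Mir148a and Bambi sites were -2.75, -4.06, -3.11 and -3.23, and those of the Adgrl3, Gm8994, Htr1b and Fabp5 sites were 2.29, 3.18, 2.03 and 1.94.

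**Figure D2:**
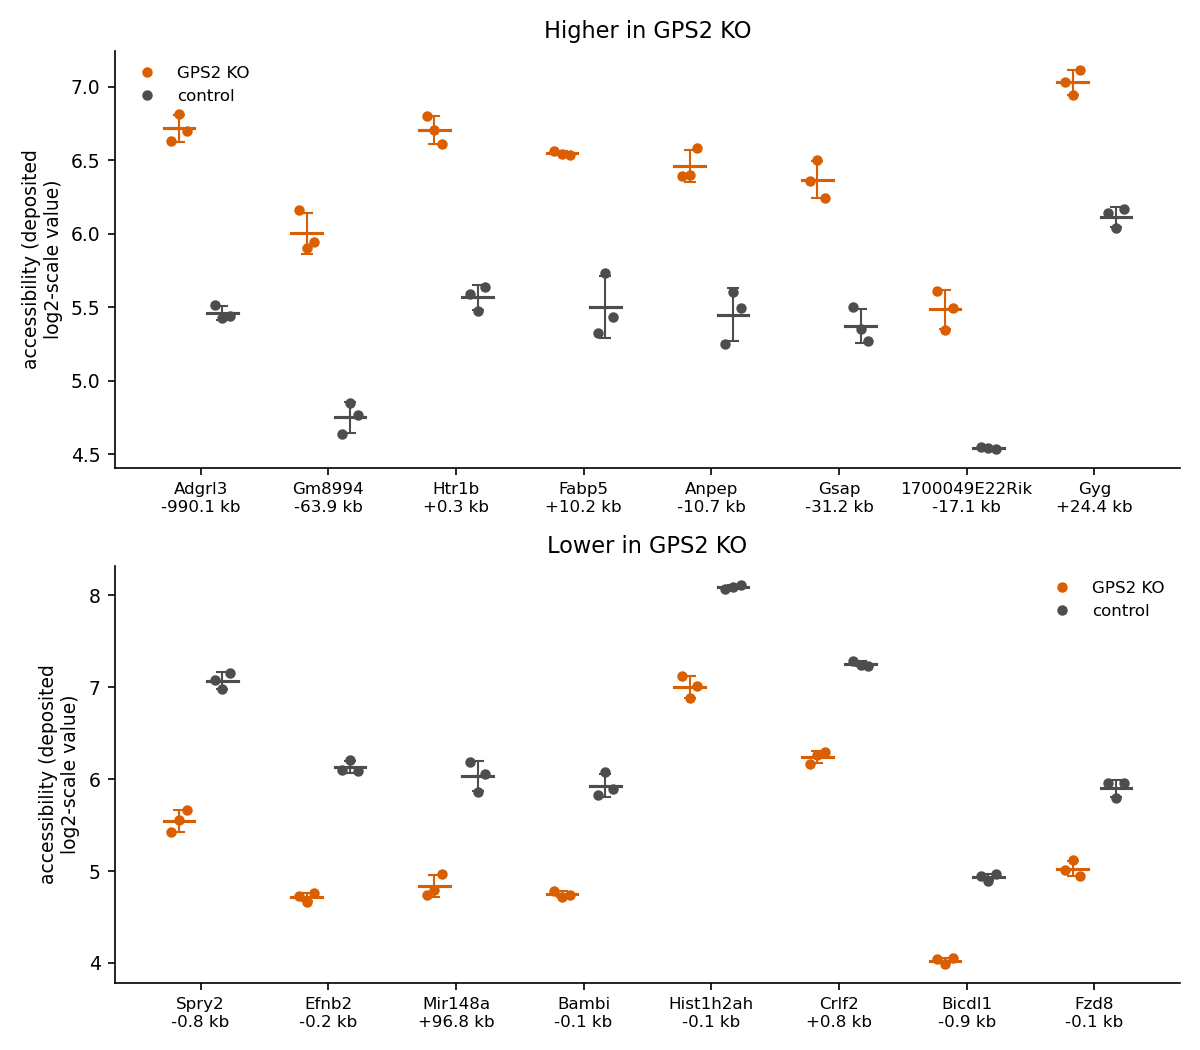
Levels of the 8 sites that gained and the 8 that lost most accessibility, 1 per nearest gene, on the authors' log2 scale. Each point is 1 library, with GPS2 KO left of control at each site and bars for the mean and SD. The 16 sites were chosen from called sites where the 3 GPS2 KO and the 3 control points do not overlap.

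Several genes changed over much of their surroundings. All 11 sites nearest to Gpnmb, which encodes a transmembrane glycoprotein of lysosomes and phagosomes and is a known target of the MiT/TFE factors, were more accessible in GPS2 KO cells, with changes of 0.18 to 0.67. The site at its first exon had levels of 7.23, 7.29 and 7.36 in the GPS2 KO libraries, against 6.72, 6.56 and 6.60 in the control libraries, a change of 0.67, adjusted p = 1.25e-13. Gpnmb RNA was 45334 ± 996 in GPS2 KO cells, against 2475 ± 66.4 in wild-type cells (SD, n = 4 each). Sorl1, the gene of an intracellular sorting receptor of the low-density lipoprotein receptor family, had 13 higher and 0 lower sites among 18, with changes of -0.03 to 0.71. The Sorl1 promoter had levels of 5.12, 4.90 and 4.98 in the GPS2 KO libraries, against 4.38, 4.33 and 4.59 in the control libraries, a change of 0.56, adjusted p = 1.66e-09, and Sorl1 RNA was 2066 ± 36 in GPS2 KO cells, against 225 ± 9.95 in wild-type cells (SD, n = 4 each).

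Rarb, the gene of retinoic acid receptor beta, had 12 higher sites of 17, most of them in its introns, with changes of 0.04 to 0.90. Its promoter site had levels of 5.39, 5.27 and 5.20 in the GPS2 KO libraries, against 4.41, 4.68 and 4.67 in the control libraries, a change of 0.70, adjusted p = 1.87e-13, and Rarb RNA was 427 ± 25.7 in GPS2 KO cells, against 93.1 ± 10.1 in wild-type cells (SD, n = 4 each). Arhgap24, which encodes a GTPase-activating protein, had 12 higher sites of 21, at 2 separate transcription starts among others, with RNA of 58.7 in GPS2 KO cells, against 1.12 in wild-type cells. At the non-coding 1700049E22Rik 11 of 18 sites were higher. None of these 5 genes had a lower site. Without 1 or another library, calls were lost at 4 of the 13 Sorl1 sites, 4 of the 12 Arhgap24 sites, 4 of the 11 Gpnmb sites, 3 of the 11 1700049E22Rik sites and 0 of the 12 Rarb sites.

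On the other side, Nck2, Lpar1 and Sema6d each had 7 lower and 0 higher sites among 9, and the RNA of all 3 was listed at 0 in every GPS2 KO library. Lpar1, which encodes a receptor for lysophosphatidic acid, had at its first intron levels of 4.26, 4.46 and 4.49 in the GPS2 KO libraries, against 5.32, 5.08 and 5.12 in the control libraries, a change of -0.77, adjusted p = 1.62e-16, with RNA of 27.1 in wild-type cells. Nck2, the gene of an SH2 and SH3 adaptor, had at its start levels of 3.54, 3.52 and 3.53 in the GPS2 KO libraries, against 3.92, 3.99 and 4.11 in the control libraries, a change of -0.48, adjusted p = 2.93e-09, with RNA of 13.3 in wild-type cells. Sema6d, the gene of a transmembrane semaphorin, had changes of -0.47 to -0.04, with RNA of 20.0 in wild-type cells. The other 2 genes were A330074K22Rik, with 6 lower sites of 16, and Sh3pxd2a, the gene of the podosome scaffold TKS5, with 5 lower sites of 11 and RNA of 19 in GPS2 KO cells, against 140.3 in wild-type cells. Calls were lost without 1 or another library at 4 of the Lpar1, 4 of the Sema6d, 2 of the Nck2, 1 of the A330074K22Rik and 3 of the Sh3pxd2a sites. Lower sites then numbered 4 for Lpar1 (without control replicate 3), 4 for Sema6d (without GPS2 KO replicate 1 or control replicate 1), and 2 (without GPS2 KO replicate 1) or 3 (without GPS2 KO replicate 3 or control replicate 2) for Sh3pxd2a. Over all 18782 genes with at least 1 site, 143 had 3 or more higher and no lower sites and 61 had 3 or more lower and no higher sites, while 220 had sites in both directions.

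**Figure D3:**
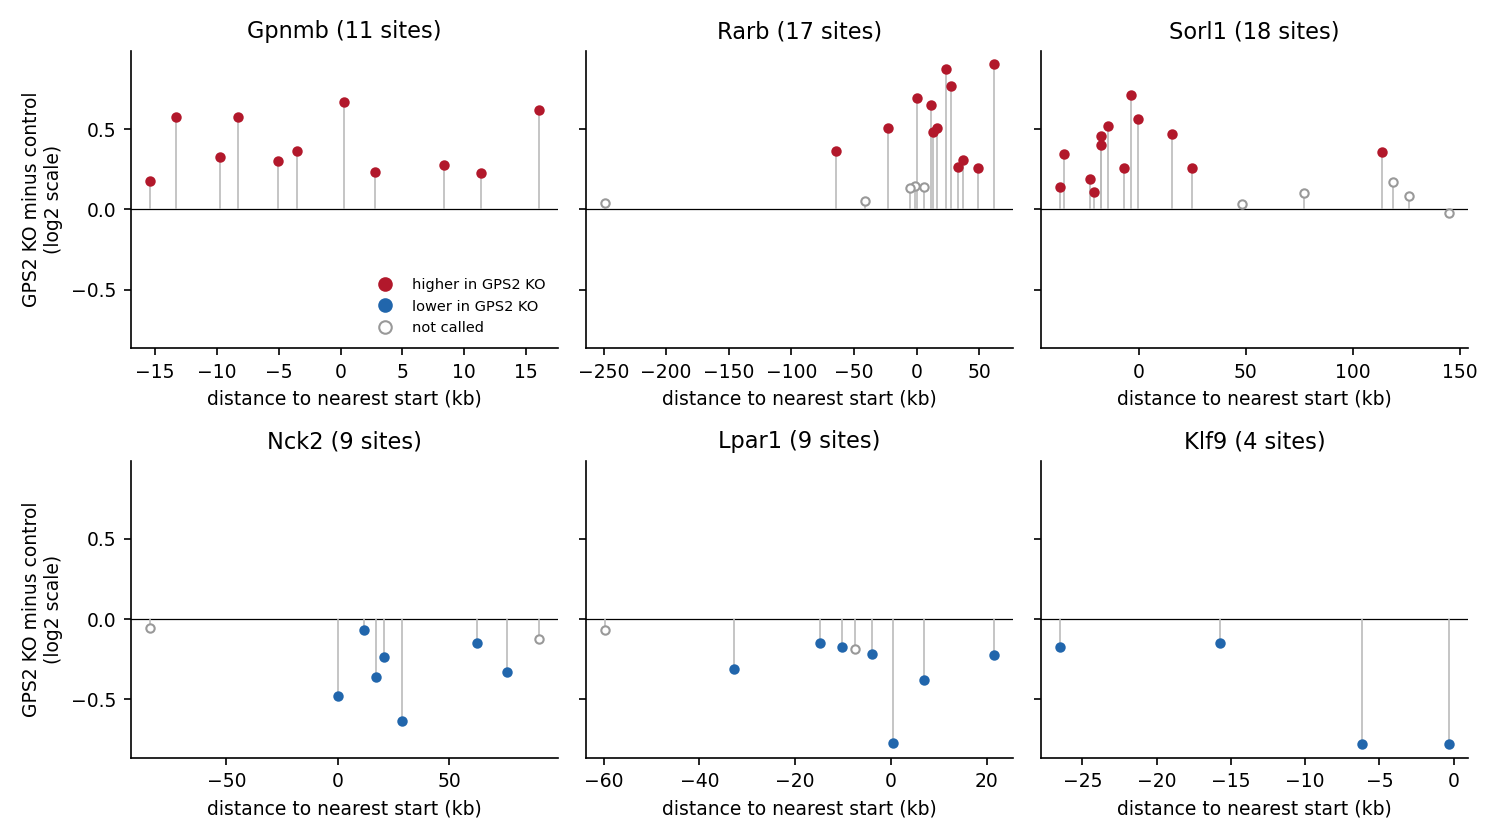
Changes of all sites nearest to Gpnmb, Rarb, Sorl1, Nck2, Lpar1 and Klf9 (GPS2 KO minus control, authors' log2 scale), against the distance of each site from the nearest transcription start in kb. Filled points were called, and all 11 Gpnmb sites lie above 0 while all 4 Klf9 sites lie below it.

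Genes with the largest RNA changes in an earlier account of these data were also read. Of those with higher RNA, Fabp4, a fatty acid carrier of macrophages and adipocytes, had promoter levels of 3.87, 3.76 and 3.83 in the GPS2 KO libraries, against 3.42, 3.40 and 3.44 in the control libraries, a change of 0.40, adjusted p = 5.66e-07, with RNA of 257 ± 9.34 in GPS2 KO cells, against 11.4 ± 0.242 in wild-type cells (SD, n = 4 each). Slpi, which encodes a secreted protease inhibitor, had a site 16.5 kb upstream that changed by 0.53, adjusted p = 6.78e-09, whereas its promoter, at 0.21, adjusted p = 0.0619, did not pass the test. Trem3, an activating myeloid receptor gene, changed at its promoter by 0.38, adjusted p = 0.000342. Cd200r4, another receptor gene, had its largest change 8.88 kb upstream, 0.16, adjusted p = 0.0198, and Tmem154 changed at its promoter by 0.24, adjusted p = 0.0456 and in an intron by 0.31, adjusted p = 0.00577. The calls of Cd200r4 and of the Tmem154 promoter were lost in some analyses that left out a library.

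Of the genes with lower RNA, Klf9, a zinc finger transcription factor gene induced by glucocorticoids, was less accessible at all 4 of its sites. A site 6.17 kb upstream had levels of 6.58, 6.55 and 6.75 in the GPS2 KO libraries, against 7.42, 7.40 and 7.40 in the control libraries, a change of -0.78, adjusted p = 4.21e-18, and its promoter changed by -0.78, adjusted p = 6.57e-18. PU.1 ChIP-seq signal at the upstream site, in reads scaled to a fixed number per library, was 2.26 in GPS2 KO cells and 23.9 in wild-type cells, and Klf9 RNA was 25.4 ± 1.95 in GPS2 KO cells, against 232 ± 9.33 in wild-type cells (SD, n = 4 each). Cd36, the scavenger receptor that takes up oxidised lipoprotein and fatty acids, had levels of 4.26, 4.11 and 4.26 in the GPS2 KO libraries, against 4.85, 4.88 and 4.84 in the control libraries at 1 of its starts, a change of -0.65, adjusted p = 5.35e-13, with RNA of 120.4 ± 16.9 in GPS2 KO cells, against 2447 ± 111 in wild-type cells (SD, n = 4 each). Another Cd36 start, at -0.10, adjusted p = 0.0871, did not pass the test.

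Zfp395, a zinc finger gene, was less accessible 16.2 kb downstream of its start, where levels were 3.67, 3.57 and 3.63 in the GPS2 KO libraries, against 4.30, 4.44 and 4.22 in the control libraries, a change of -0.70, adjusted p = 3.46e-17, and at its promoter, -0.48, adjusted p = 5.84e-09. Zfp395 RNA was 0.276 ± 0.552 in GPS2 KO cells, against 131 ± 4.62 in wild-type cells (SD, n = 4 each). Gypc, the gene of glycophorin C of the membrane skeleton, changed by -0.76, adjusted p = 2.36e-15 in its first intron and by -0.45, adjusted p = 9.79e-08 near its start. The promoter of Epop, whose product associates with Polycomb repressive complex components, changed by -0.71, adjusted p = 3.32e-14, with RNA of 18.4 in GPS2 KO cells, against 276 in wild-type cells. At each of these genes, and at Gpnmb described above, the sites given here that passed the test had the direction of the RNA.

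Losses outnumbered gains at promoters, and gains outnumbered losses at distal sites. Within 1 kb of a start, 252 of 11732 sites rose (2.15%) and 488 fell (4.16%), while beyond 1 kb 2708 of 61474 sites rose (4.41%) and 1823 fell (2.97%). The median change was -0.01 at promoters and 0.00 at distal sites. The balance was of the same direction with 500 bp (191 higher and 403 lower) and 3 kb (377 higher and 612 lower) as the limit. Without 1 library the counts moved by over 1.5 times to 147 promoter gains (control replicate 1), 323 promoter losses (control replicate 2), 1600 and 1669 distal gains (control replicates 1 and 3), and 1165, 1146, 1101 and 1174 distal losses (GPS2 KO replicates 1 and 2, control replicates 1 and 3). Promoter sites had a median level of 6.37 and distal sites of 3.51, and the compression of the scale differs between such levels, so the shares of the 2 classes were not tested against each other. Intergenic sites had 1430 gains (5.31%) and 599 losses (2.23%) among 26912, whereas introns were nearly balanced, with 1198 gains and 1134 losses among 32969.

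Among less frequent annotations, losses outnumbered gains in CpG islands, exons and UTRs. Distal CpG islands had 8 gains and 38 losses (8.09%) among 470 sites, and 5' UTR sites had 14 gains and 54 losses (5.99%) among 902. Losses made up 4.80% of 3' UTR sites and 4.71% of exon sites. Promoter sites annotated as CpG islands had 4.96% losses, near the 4.09% of other promoter sites. The promoter sites that fell had a median GC content of 61.7%, those that rose 54.9%, and all promoter sites 58.1%. Gains were more frequent than losses in LTR retrotransposons, with 281 gains (5.24%) and 103 losses (1.92%) among 5366 sites. The balance was similar in intergenic sites as a whole (above), in DNA transposons (4.84% and 1.77% of 620) and in LINE elements (4.59% and 2.50% of 2682). Reads from such repeats may map to several copies, so single LTR sites are uncertain. Of the merged sites, 11709 had a peak called in GPS2 KO cells only, with 1091 gains and 0 losses, and 10179 in control cells only, with 2 gains and 763 losses. Those peaks were called on the same libraries, so this split is not independent of the change.

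Accessibility was next set against RNA of the nearest gene. RNA was called higher by at least 1 on the log2 scale for 412 genes (3.73% of 11050 tested) and lower for 290 (2.62%). Of 354 promoter sites of genes with higher RNA, 79 were more accessible (22.3%) and 5 less accessible (1.41%), and the median change was 0.08. Of 220 promoter sites of genes with lower RNA, 3 were more accessible and 71 less accessible (32.3%), and the median change was -0.14. Counted by gene, 78 of 335 genes with higher RNA and a promoter site had a gain there (23.3%), and 71 of 212 genes with lower RNA had a loss (33.5%). Among all 9093 genes tested in RNA with a promoter site, 2.21% had a gain and 2.91% a loss. Most promoters of both RNA classes did not pass the ATAC-seq test. The 5 losses among genes with higher RNA became 1 to 3 without any 1 library, and the 3 gains among genes with lower RNA became 1 without control replicate 2 or 3.

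The library medians showed the same directions. The median promoter level of the genes with higher RNA was 5.80, 5.82 and 5.77 in the GPS2 KO libraries, against 5.70, 5.72 and 5.68 in the control libraries. For genes with lower RNA it was 5.61, 5.57 and 5.66 in the GPS2 KO libraries, against 5.82, 5.80 and 5.82 in the control libraries. Both sets of libraries were fully separated, with p = 0.1 in an exact two-sided permutation test, the smallest that 3 against 3 libraries can give.

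**Figure D4:**
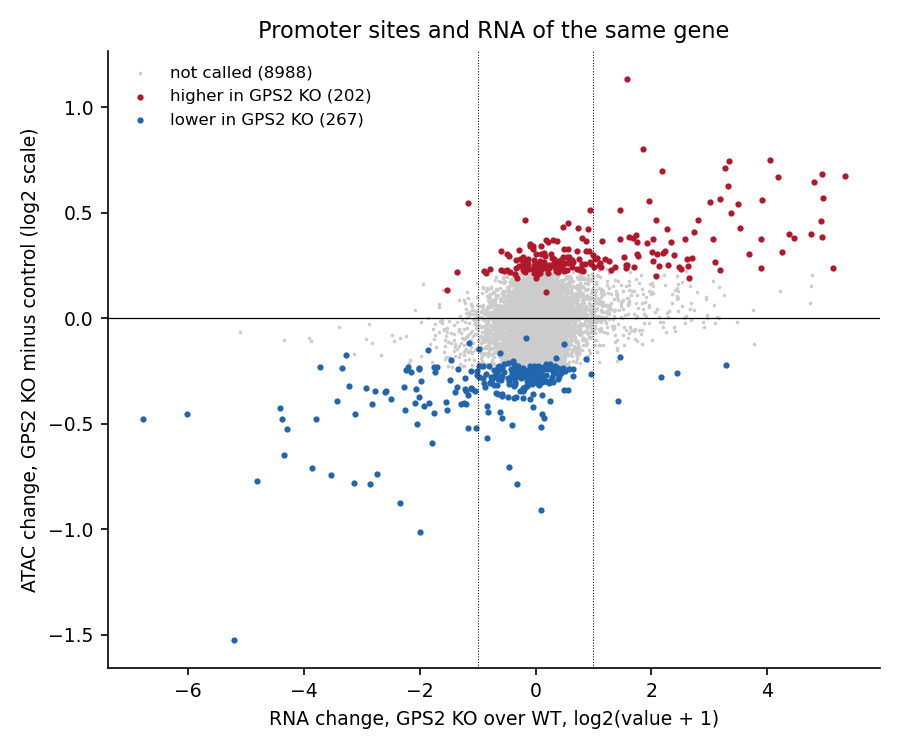
Change of each promoter ATAC-seq site on the y axis (authors' log2 scale) against the log2 RNA change of its gene on the x axis, GPS2 KO minus control or wild type, for 9457 sites with a tested gene. Of these 202 were called higher and 267 lower in accessibility, and 8988 were not called.

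Distal calls were counted by the RNA of the nearest gene in the same way. Of 2329 distal sites whose nearest gene had higher RNA, 347 rose (14.9%) and 22 fell, and of 955 whose nearest gene had lower RNA, 16 rose and 113 fell (11.8%). By gene, 170 of 380 genes with higher RNA had a distal gain (44.7%) and 18 a distal loss. For 223 genes with lower RNA, 64 had a distal loss (28.7%) and 11 a distal gain. Among all 8509 genes tested in RNA with a distal site, 12.7% had a gain and 11.4% a loss. A gene with more sites has more chances of a call, and these counts were not adjusted for that. Library medians of the first class were 3.81, 3.82 and 3.82 in the GPS2 KO libraries, against 3.75, 3.72 and 3.76 in the control libraries (exact permutation test, p = 0.1). Those of the second class overlapped, at 3.77, 3.75 and 3.77 in the GPS2 KO libraries, against 3.78, 3.77 and 3.76 in the control libraries (exact permutation test, p = 0.6). Without 1 library, the 113 distal losses became 74 (GPS2 KO replicate 1) or 72 (control replicate 1), the 22 losses 13 (GPS2 KO replicate 2) or 10 (control replicate 1), and the 16 gains 10 (GPS2 KO replicate 3 or control replicate 3). Promoters of genes with little RNA also changed, mostly by loss: of 1295 promoter sites whose gene was too low to test, 30 rose and 130 fell (10.0%), as did the Efnb2 promoter described above. The median level of these sites was 4.50, and of all promoter sites at levels from 4 to 5, 9.66% fell. The share of losses is thus near that of promoters at a like level.

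The sites were then read against PU.1 and JunB binding. Each factor had 2 libraries per group. Those of both PU.1 groups and of JunB in wild-type cells differed by no more than sampling noise (chi-square per peak 0.940 for PU.1 in GPS2 KO cells, against 0.877 in wild-type cells, and 0.961 for JunB in wild-type cells) and were counted as 1 sample. The 2 JunB libraries of GPS2 KO cells differed by more than sampling noise (1.18 per peak). Group means are given, and no test was run on the binding. The peaks were merged over untreated and LPS libraries, so a peak over a site need not be one of untreated cells. Peaks found only in GPS2 KO cells may be among them, so the overlaps may not be independent of the change in accessibility. Of distal sites under a JunB peak but no PU.1 peak, 758 of 10486 rose (7.23%) and 254 fell (2.42%). Of those under a PU.1 peak but no JunB peak, 246 of 10811 rose (2.28%) and 439 fell (4.06%). Sites under both had 1026 gains (5.82%) and 597 losses (3.39%) among 17614, and sites under neither 678 gains (3.0%) and 533 losses (2.36%) among 22563. The median level was 5.01 under both and 2.59 under neither. Of all distal sites, 6.29% rose and 4.42% fell at levels from 5 to 6. At levels from 2 to 3, 3.49% rose and 1.94% fell. Seen from the sites, a JunB peak lay over 65.9% of distal gains and 46.7% of distal losses, against 45.7% of all distal sites, and a PU.1 peak over 47.0% of gains and 56.8% of losses, against 46.2% of all.

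**Figure D5:**
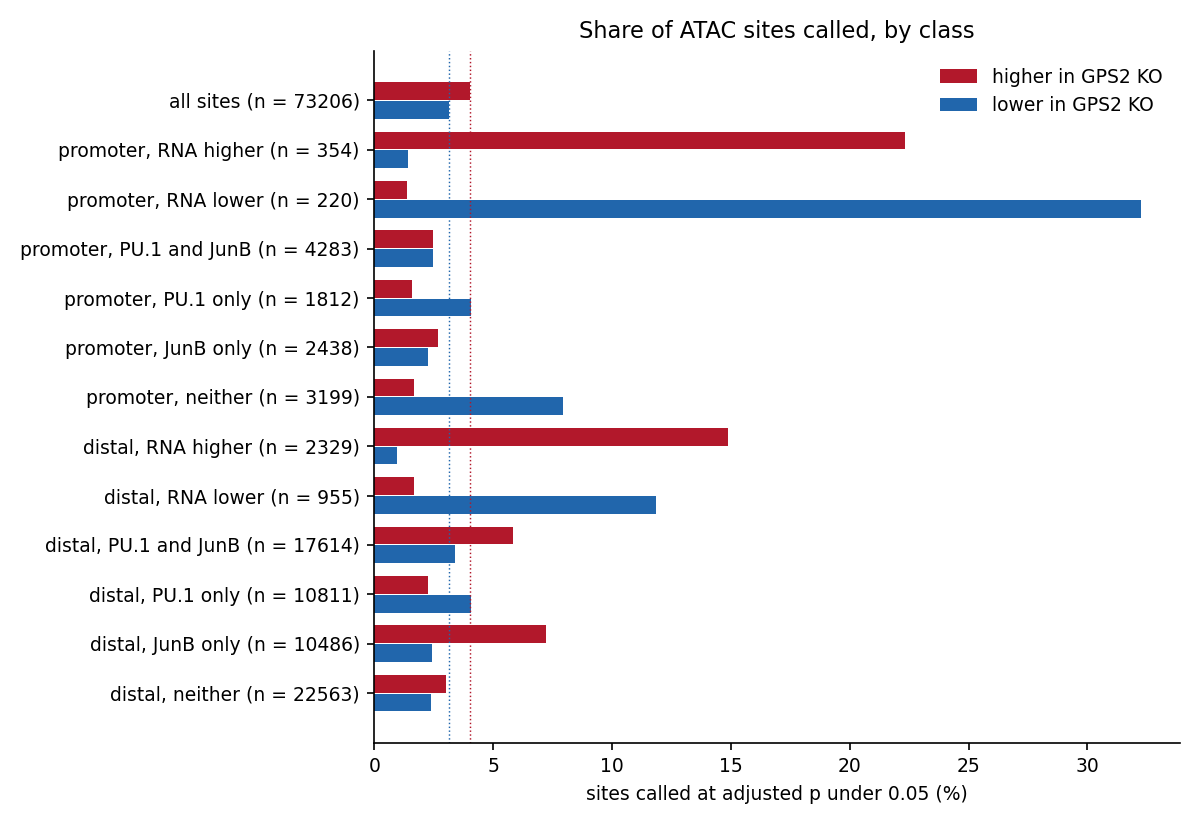
Percentage of sites called higher and lower in GPS2 KO cells in each class of sites, by distance from a start, PU.1 and JunB peaks, and RNA of the nearest gene. Dotted lines mark the shares over all 73206 sites, 4.04% higher and 3.16% lower.

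Binding signal was then set beside the change in accessibility. PU.1 signal was lower in GPS2 KO cells at the median distal peak (log2 -0.57), less so at sites that gained accessibility (-0.22) and more so at sites that lost it (-0.92). It was higher in GPS2 KO cells at only 7.23% of distal and 6.58% of promoter sites with a PU.1 peak. Signals were scaled to mapped reads, so lower binding and a weaker pull-down in the GPS2 KO libraries cannot be told apart in such a general shift. For JunB the medians were 0.06 at gains, -0.65 at losses and -0.37 at all distal sites with a peak. At promoters the JunB medians were of the other sign and in another order, 0.31 at gains, 0.17 at losses and 0.48 at all promoter sites with a peak, and the PU.1 medians were -0.35, -0.69 and -0.51. Spi1, which encodes PU.1, had RNA of 2402 ± 67.8 in GPS2 KO cells, against 3756 ± 186 in wild-type cells (SD, n = 4 each). Across all called sites with a peak the change in accessibility correlated with the change in PU.1 signal (Pearson r = 0.617, Spearman rank correlation 0.588, 2621 sites) and in JunB signal (r = 0.437, rank correlation 0.415, 2965 sites). Over all sites with a peak the values were lower, r = 0.317 for PU.1 over 34520 sites and r = 0.167 for JunB over 34821. Called sites were selected by their change in accessibility, which by itself raises a correlation with it. These are correlations across sites of the same few libraries, and sites are not replicates.

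Among promoters without either factor, losses outnumbered gains. Of 3199 promoter sites with neither a PU.1 nor a JunB peak, 53 rose and 254 fell (7.94%), among them the Spry2, Efnb2 and Fzd8 sites. The median level of these 3199 sites was 5.26, below the 6.37 of all promoter sites. Of all promoter sites, 9.66% fell at levels from 4 to 5 and 3.88% at levels from 5 to 6. Bambi had a PU.1 peak with a signal of 2.33 in GPS2 KO cells and 16.5 in wild-type cells. At Crlf2 the PU.1 signal was 27.3 in GPS2 KO cells and 58.8 in wild-type cells, while the JunB signal was 16.3 in GPS2 KO cells and 15.8 in wild-type cells. At Mir148a the PU.1 signal was 21.1 in GPS2 KO cells and 54.4 in wild-type cells. At the Fabp5 site, where no PU.1 peak lay, the JunB signal was 16.5 in GPS2 KO cells and 6.43 in wild-type cells.

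Letters of 14 motifs, of which some are given here, were counted on both strands of the same central window of 73105 sites. The AP-1 letters TGANTCA lay in 18.4% of distal gains and 16.1% of distal losses, against 15.7% of all distal windows. The C/EBP letters TTGCNNAA lay in 12.9% of gains and 8.52% of losses, against 9.89% of all, and the C/EBP-ATF composite TGATGNAA in 5.21% of gains and 2.31% of losses, against 3.46% of all. PU.1 letters GAGGAAGT lay in 6.03% of gains and 7.47% of losses, against 7.21% of all. The motif of CTCF, the factor that anchors chromatin loops, lay in 1.11% of gains and 1.7% of losses, against 3.71% of all distal windows. At promoters the AP-1 letters lay in 8.76% of gains and 4.92% of losses, against 3.95% of all, and the CTCF motif in 1.2% of gains and 4.92% of losses, against 3.87% of all. The AP-1 letters form part of the longer MAF motif, which lay in 1.11% of distal gains and 1.15% of distal losses, against 1.14% of all. A match is a description of letters and not a bound site.

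Gene lists of macrophage biology were read by the sites nearest to their members, beside 4.04% higher and 3.16% lower over all sites. The lists were chosen with results of these data known, and their counts are a description. Of 93 sites of the TREM, paired immunoglobulin-like, CD200 and CD300 receptors and myeloid lectins, 16 rose and 3 fell, and 6 of their 17 promoter sites rose with none falling. Treml2, a receptor of the TREM family, had levels of 5.20, 5.08 and 5.23 in the GPS2 KO libraries, against 4.45, 4.40 and 4.63 in the control libraries, a change of 0.68, adjusted p = 4.75e-13, with RNA of 48.9 in GPS2 KO cells, against 0.289 in wild-type cells. The promoter of Trem1, which amplifies inflammatory signals, changed by 0.45, adjusted p = 2.70e-07. Sites of Cd300a and Clec4d fell by 0.31 and 0.25, calls that were lost in some analyses that left out a library.

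Of 119 sites of inflammatory cytokines and mediators, 11 rose and 3 fell, at 7 and 2 genes. The Tnf site, 741 bp from the start of this tumour necrosis factor gene, had levels of 8.05, 7.86 and 7.88 in the GPS2 KO libraries, against 7.51, 7.49 and 7.52 in the control libraries, a change of 0.42, adjusted p = 1.58e-06, with RNA of 819 in GPS2 KO cells, against 436 in wild-type cells. The promoter of Nos2, which encodes inducible nitric oxide synthase, changed by 0.37, adjusted p = 0.000101, with RNA of 198 in GPS2 KO cells, against 71.7 in wild-type cells. A site 33.1 kb from Il10, the anti-inflammatory cytokine gene, changed by -0.59, adjusted p = 1.23e-09. Of 60 chemokine sites 5 rose and 1 fell. Ccl4, which attracts monocytes and lymphocytes, changed at its start by 0.56, adjusted p = 4.91e-09, with RNA of 1037 in GPS2 KO cells, against 266 in wild-type cells, and Ccl3 8.87 kb from its start by 0.44, adjusted p = 5.31e-06, with RNA of 4367 in GPS2 KO cells, against 1304 in wild-type cells. Ccl3 and Ccl4 belong to a cluster of related genes, where reads of near-identical copies could be shared.

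Ccl2, the monocyte-attracting chemokine, had 6 sites and no call. Its promoter had levels of 6.45, 6.48 and 6.45 in the GPS2 KO libraries, against 6.68, 6.69 and 6.62 in the control libraries, a change of -0.20, adjusted p = 0.0909, and the changes of the 6 sites spanned -0.20 to 0.20. Ccl2 RNA was 218 ± 22.7 in GPS2 KO cells, against 101 ± 7.52 in wild-type cells (SD, n = 4 each), a log2 change of 1.09, so its RNA was higher while none of its sites passed the test, although the promoter levels of the 2 groups did not overlap. Of 114 sites of interferon-stimulated genes 9 rose and 0 fell, at 6 genes, among them Rsad2, an antiviral enzyme gene, at 0.41, adjusted p = 3.46e-05, and its neighbour Cmpk2 at 0.36, adjusted p = 0.000817.

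Genes of macrophage identity went more often the other way, with 7 gains and 18 losses among 191 sites, but 5 of the 18 losses were Cd36 sites. Sites of Itgam, the gene of the integrin CD11b, and of Lyz1, a lysozyme gene, rose by 0.47 and 0.45, while a site 56.5 kb from Maf, a bZIP factor gene of resident macrophages, changed by -0.45, adjusted p = 5.68e-06. Lyz1 has a near-identical neighbour, Lyz2, so its reads could be split. Maf RNA was 80.2 in GPS2 KO cells, against 17.2 in wild-type cells, opposite to this site. Sites of NF-kB genes were balanced, with 7 gains and 10 losses among 183, as were sites of lineage and early response factors, with 14 gains and 19 losses among 366. Runx1, a haematopoietic factor gene, held both directions, with sites at 41.9 kb and 43.1 kb from 2 of its starts that changed by 0.58 and -0.42. Of 124 sites of AP-1 and related factors 1 rose and 2 fell.

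Metabolic and stress lists were counted in the same way. Of 179 sites of MiT/TFE factors and lysosomal genes 16 rose and 4 fell, but 11 of the 16 were the Gpnmb sites. Of 136 sites of glycolysis and hypoxia genes 11 rose and 1 fell, at 9 genes and 1 gene. Sites of Eno1, the enolase gene, and Slc2a1, the glucose transporter GLUT1 gene, rose by 0.50 and 0.42, beside RNA of 11645 in GPS2 KO cells, against 13585 in wild-type cells for Eno1 and 2610 in GPS2 KO cells, against 3176 in wild-type cells for Slc2a1. Of 113 sites of integrated stress response genes 7 rose and 0 fell, at 4 genes, including Slc7a11, the cystine transporter gene, at 0.35, adjusted p = 0.00183, with RNA of 1439 in GPS2 KO cells, against 167 in wild-type cells, a call that was lost without GPS2 KO replicate 3. Of 95 sites of fatty acid handling genes 9 rose and 10 fell, with Fabp5 and Fabp4 among the gains and Cd36 and Dgat2, which makes triglyceride, among the losses. Cd36 sites made up 5 of the 10 losses.

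Of 72 sites of LXR and cholesterol efflux genes 2 rose and 6 fell. The site at the start of Arl4c, a small GTPase gene, had levels of 5.33, 5.18 and 5.34 in the GPS2 KO libraries, against 5.87, 5.61 and 5.87 in the control libraries, a change of -0.50, adjusted p = 6.36e-07, with RNA of 2.54 in GPS2 KO cells, against 13.4 in wild-type cells. The gains at Abca1 and Abcg1, the cholesterol exporter genes, were small, 0.27, adjusted p = 0.0239 and 0.15, adjusted p = 0.0372, and were lost in some analyses that left out a library. Cholesterol biosynthesis genes had 1 gain and 3 losses among 74 sites, osteoclast genes 5 and 8 among 93, and cell cycle genes 5 and 1 among 142.

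Of the 59 sites of the corepressor genes read here 1 rose and 3 fell (1.69% and 5.08%), and the 3 losses were at promoters. The promoter of Ncor1 changed by -0.24, adjusted p = 0.0275, that of Tbl1xr1 by -0.30, adjusted p = 0.00629 and that of Coro2a by -0.28, adjusted p = 0.0156, while Tbl1x, at -0.10, adjusted p = 0.503, did not pass the test. The 3 calls were each lost in some analyses that left out a library. Their RNA was 1832 in GPS2 KO cells, against 1404 in wild-type cells for Ncor1, 1192 in GPS2 KO cells, against 964 in wild-type cells for Tbl1xr1 and 54.4 in GPS2 KO cells, against 103 in wild-type cells for Coro2a. The single site of Gps2, at chr11:69727411-69729768, had levels of 9.44, 9.99 and 9.86 in the GPS2 KO libraries, against 10.00, 9.59 and 9.28 in the control libraries. Its distance from the start was 1067 bp, outside the promoter class used here, but the site is wide enough to reach the start. The groups overlapped, the change was 0.14 (adjusted p = 0.82), and the region that CRISPR cut is not given in the sources used here.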

How the data were processed

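ATAC-seq site values were deposited on a log2 scale. Per the file headers, the authors merged MACS2 peaks and annotated them with HOMER on mm9, whose differential expression program compared 3 WT with 3 KO columns. The transformation behind the values is not given in the sources used here, and the log2 fold change and adjusted p-value columns are the authors' deposited comparison. RNA values are a normalized score in reads per 10000000 mapped reads, per the file headers, and PU.1 and JunB peak values are a deposited score on the same basis, from peaks merged over untreated and LPS libraries. The submitters' processing notes list BWA, Bowtie2, HISAT2, MACS2, HOMER, DESeq2 and edgeR without versions. Reads were 75 bp, single-end.

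Sites were tested with limma 3.58.1 (R 4.3.3; trend and robust moderation, two-sided) on the 6 libraries as deposited, with Benjamini-Hochberg adjustment over all 73206 sites. As the prior carried 286.2 degrees of freedom beside 4 residual ones, the standard errors are mostly shared between sites of like level. The files hold no counts, so no count test was run, also for RNA, where limma was fitted to log2(value / TMM factor + 1) of 8 libraries after a filter of 10 or more in at least 4 libraries. That log2 RNA change understates the change of low genes. PU.1 and JunB changes are log2(value + 1) differences. A peak overlapped a site by at least 1 base. The files give no count per ATAC site, so precision rests on the replicates. In data simulated on the ATAC comparison (73206 sites), 52 of 200 sites changed by 0.25 were recovered, and 200 of 200 at 0.5. On the RNA comparison (11050 genes) 200 of 200 genes changed by log2 1 were recovered. The simulated ATAC changes left out sites of the lowest levels, and the spread depended on the level alone. With 200 changed sites the adjusted p is harder to pass than with the 5271 called here, so these shares are not the power of this comparison. Distances and annotations are the authors'. RNA was matched to sites by gene symbol or, where the symbol was not found, by the transcript identifier of the nearest promoter. 8 PU.1 and JunB columns after LPS were not used here.

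The text names the 8 highest and 8 lowest non-overlapping called sites, 1 per gene; 5 each way within 1 kb of a start; the 5 genes with the largest surplus of called sites each way; up to 2 called sites each way per gene list, of which some are given; corepressor promoters, 1 of them not reported here; 11 genes with large RNA changes; and all Ccl2 sites. Sites, members and lists were chosen with earlier results of these data known. Replicate numbers did not pair the libraries (correlation of same-numbered deviations -0.0047, -0.0050 and -0.0010), and each well was used as its own replicate. Bases were read from NCBIM37, whose chromosome lengths were checked against the site coordinates.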

Additional observations from a re-analysis of the deposited data

Results flagged for a closer look

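Among the RNA values of the genes named, 145 groups of 4 libraries were checked for a library standing apart from the other 3, measured as its gap to the nearest divided by the range of the group, and 4 exceeded the critical value, where chance gives about 1 in 20. Slc7a11 RNA in GPS2 KO cells was 1428, 1428, 1475 and 1426, a gap of 0.9624 of the range. Cxcl16 RNA in GPS2 KO cells was 153.8, 154.9, 156.8 and 129.2, a gap of 0.8924. Fabp4 RNA in wild-type cells was 11.55, 11.5, 11.49 and 11.03, a gap of 0.8737, and Sh3pxd2a RNA in wild-type cells was 127.1, 146.3, 143.1 and 144.9, a gap of 0.8343. Each of these groups spans a small range beside the difference between GPS2 KO and wild-type cells. The ATAC-seq groups of 3 libraries are too small for this check.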

How the results depend on the processing

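Of the 181 called sites tracked for the text, 120 were called in every one of the 14 alternatives that tested them, 61 lost the call in at least 1 and 56 when 1 library was left out. Leaving out 1 library gave 3189 to 4087 called sites in all (1747 to 2365 higher, 1442 to 1722 lower), 147 to 191 higher and 323 to 388 lower promoter sites, and 1600 to 2183 higher and 1101 to 1334 lower distal sites. For genes with higher RNA it gave 1 to 3 lower promoter sites and 10 to 18 lower distal sites, and for genes with lower RNA 1 to 2 higher promoter sites, 10 to 15 higher distal sites and 72 to 84 lower distal sites. When the spread was not modelled on the level, 2539 sites were called, 1423 higher and 1116 lower (promoters 156 and 278, distal sites 1267 and 838), with 202 higher and 10 lower distal sites and 3 lower promoter sites for genes with higher RNA, and 5 higher and 59 lower distal sites for genes with lower RNA; the cause was not tested. A change of at least 1 was met by 13 called sites, 6 higher and 7 lower. Quantile normalisation gave 5120 calls, median centring 5300, chromosome centring 5302, library weights 5338, no robust moderation 5200 and leaving out the 25% of sites with the lowest levels 4671. With an overlap of at least 50% of the shorter region, PU.1 peaks lay over 46.3% of distal gains and 56.1% of distal losses, and JunB peaks over 65.1% and 45.9%. None of the ATAC-seq sites tracked for the text changed sign in these alternatives. The replicate block, although the numbers do not pair the libraries, gave 5267 called sites, 2948 higher and 2319 lower, with 5209 shared, and 3508 higher and 3564 lower RNA genes, against 3484 and 3529 without it. For RNA, a fit of all 16 libraries gave 2011 higher and 2050 lower genes, no filter gave 487 genes lower by at least 1, and library totals in place of TMM gave 2655 higher and 4518 lower, 37.0% higher against 49.7%. Small changes may be missed with 3 libraries per group. A change of 0.25 was recovered at 52 of 200 simulated sites, in data where far fewer sites changed than were called here.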

Other observations

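The site of Gps2 itself stood apart from all others in its spread. Its SD was 0.287 in the GPS2 KO libraries and 0.361 in the control libraries, the largest mean SD of all 73206 sites, where the median was 0.0643, and its level ranked 5 among all sites. The 2 groups each held a library near 10 and another at or below 9.5, so the spread was not a difference between genotypes.

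Some other sites that fell lay near genes with little or no RNA in GPS2 KO cells. Adgrl2, which encodes an adhesion receptor of the latrophilin family like Adgrl3, had 4 lower sites of 5, and its RNA was listed at 0 in GPS2 KO cells, against 46.5 ± 7.56 in wild-type cells (SD, n = 4 each). Kirrel3, a cell adhesion gene, had 5 lower sites of 21, with RNA of 6.41 in GPS2 KO cells, against 45.6 in wild-type cells. On the other side Nedd9, an adhesion scaffold gene, had 9 higher sites of 14, with RNA of 106 ± 7.38 in GPS2 KO cells, against 3.10 ± 1.26 in wild-type cells, and Dhrs3, a retinaldehyde reductase gene, had 8 of 19, with RNA of 2076 ± 43.4 in GPS2 KO cells, against 346.0 ± 29.4 in wild-type cells. Rybp, a subunit of Polycomb repressive complexes, had 10 higher sites of 31 beside a log2 RNA change of 0.53. These genes are some of those that follow the named ones in the order of surplus, and were chosen after their values were seen. Not all genes in that order had a large RNA change. Rxra had 5 lower sites of 13, with RNA of 168 in GPS2 KO cells, against 214 in wild-type cells. Iqsec1 had 9 higher sites of 21, with RNA of 825 in GPS2 KO cells, against 679 in wild-type cells.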
